A study of Mus musculus with 16 samples.

Results

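The comparison asked whether tauroursodeoxycholic acid (TU) changed gene expression in adult fat by a different amount after poor early nutrition than after normal early nutrition. It was the difference of 2 differences, UN-RG-TU minus UN-RG-Veh, less NN-TU minus NN-Veh, and is called the interaction below. All 16 arrays of the series enter it, 4 in each of the 4 groups, and it was fitted for all 22206 transcript clusters of the array that are not controls, where a cluster is the set of probes that reads 1 gene. A positive interaction means that TU raised the gene more, or lowered it less, in the UN-RG background than in the NN background.

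The pups were male mice of strain C57BL/6 in the labels, C57Bl/6 NCrSlc in the study's methods, and RNA of epididymal adipose tissue from 1 pup was hybridized to each array. Pups of UN-RG-TU and of UN-RG-Veh came from dams restricted to 60% of normal energy intake in the second part of pregnancy and grew up in litters cut to 4 pups, which brings rapid infantile growth. Pups of NN-TU and of NN-Veh came from dams that ate freely and grew up in larger litters. The source label of the 4 NN-TU samples reads NN-RG-TU, which would mean small litters. Their titles read NN-TUDCA and the study describes no NN-RG group, so they were taken as NN-TU. Later feeding was shared, with a high-fat diet in all groups from 9 wks, and TU in water or the water alone (Veh) by mouth from 11 to 16.5 wks. Undernutrition and the small litter always came together, so their parts in any difference between UN-RG and NN pups cannot be told apart. Litters of the single pups were not given, and the p-values measure the spread between these 16 pups.

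TU is a taurine-conjugated bile acid that serves as a chemical chaperone. It eases the load of misfolded protein in the endoplasmic reticulum, and it is given to obese mice as an agent against endoplasmic reticulum stress and inflammation of fat. Fat of obese mice gathers macrophages and lymphocytes, and interferon-γ from these lymphocytes turns on genes for antigen presentation in macrophages and in fat cells themselves. The lists below follow that biology, from interferon targets and antigen presentation through lipid synthesis and prostaglandins to the cells that make up the tissue. They were drawn up with the study and earlier results of these data known. The study itself had found interferon-γ and interferon-β terms in these arrays. Frequent calls in a list are therefore no independent evidence.

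Values are log2 of the normalized intensity. Array medians were even, the highest being 7.16, and the 220 negative control probe sets, taken as the level of no signal, had medians of 6.27 to 6.85, with a mean of 6.63. Of the clusters, 55.7% had a group mean above that level. Arrays of 1 group correlated with each other at 0.977 to 0.995. Markers of adipocytes were high throughout, with a list mean over 14 genes of 15.08 to 15.63 in every UN-RG array and 15.23 to 15.53 in every NN array, and markers of epididymal epithelium were near or below the negative controls, at 5.19 to 5.71. Transcripts of motile cilia stood out in 1 array of each group, UN-RG-TU replicate 14 (7.87), UN-RG-Veh replicate 12 (7.78), NN-TU replicate 8 (8.94) and NN-Veh replicate 2 (9.16), with 6.05 to 6.46 in the other 12. Markers of testis and germ cells (13 genes) stood out in NN-TU replicate 8 (7.12) and NN-Veh replicate 3 (7.51), with 4.96 to 5.89 in the other 14. The first 4 are called the arrays with cilia transcripts, and results were therefore also computed without them, and without each of the 16 arrays in turn.

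No cluster passed an adjusted p of 0.05 in the interaction, which is 0% of those tested, by limma with Benjamini-Hochberg adjustment. The smallest adjusted p, of *Lyve1*, was 0.261, and the next was 0.987. At an unadjusted p under 0.05 there were 701 clusters, 3.16% of all, which is below the 5% that p-values spread evenly would give. The description that follows uses the thresholds of the study's methods, an unadjusted p of 0.05 with a difference of 1.3-fold, and "past the thresholds" means both. At these, 302 clusters were higher in the interaction (1.36% of those tested) and 365 were lower (1.64%). With each array centred on its median these counts were 194 higher and 446 lower. Each such gene is a candidate with no support after adjustment, so values by array are given for the genes that lead each group. The shares of 1.36% and 1.64% are the background for every count of list members below. Those of the next paragraph serve for counts within UN-RG or NN pups. A single call in a list is not read as a result about that list.

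Within UN-RG pups alone, 607 clusters were higher with TU (2.73%) and 706 were lower (3.18%). In NN pups 301 were higher (1.36%) and 429 were lower (1.93%). Both effects were in the same direction and past the thresholds in 209 clusters, 71 higher and 138 lower. They were in opposite directions and past the thresholds in 4 clusters (0.018%). A further reading of the arrays without any model, every TU array beyond every vehicle array in one direction in UN-RG pups and in the other direction in NN pups, also gave 4 clusters (0.018%). Random order of the arrays gives such clusters too, so that count is no evidence of opposite effects. Of 1100 clusters past the thresholds in UN-RG pups and not in NN pups, 267 were past them in the interaction, and the rest are not shown to respond differently in the 2 backgrounds.

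**Figure D1:**
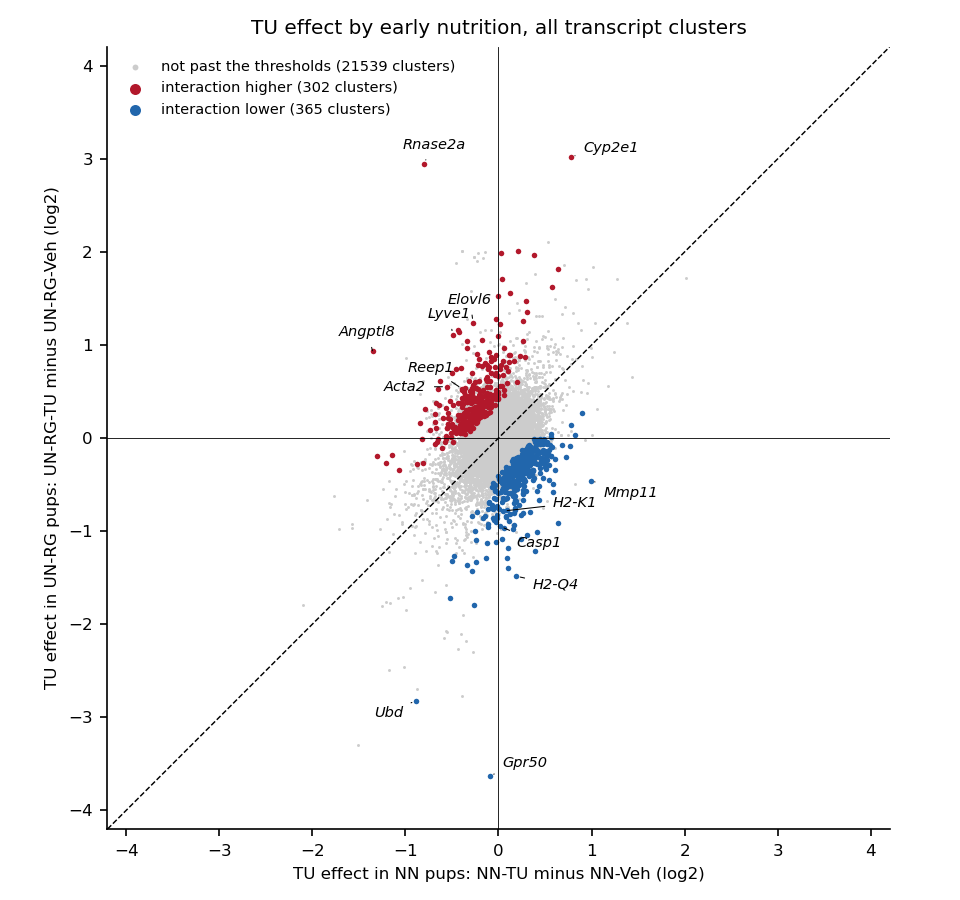
TU effect in UN-RG pups (vertical axis, log2) against the TU effect in NN pups (horizontal axis, log2), 1 point per transcript cluster, with the dashed line where both effects are equal. The 302 clusters with a higher interaction lie above the line and the 365 with a lower one below it, mostly across 0 from each other in the 2 backgrounds.

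The clusters past the thresholds mostly had effects on both sides of 0. Opposite signs of the 2 estimates were seen in 256 of the 302 higher clusters (84.8%) and in 316 of the 365 lower ones (86.6%), against 41.5% of all clusters. Picking clusters by a large difference favours opposite signs, so these shares describe the selection. Among the 302 higher clusters, 123 were higher with TU in UN-RG pups without passing in NN pups, 57 were lower in NN pups without passing in UN-RG pups, 3 passed in both and 119 in neither. Of the 365 lower clusters, 144 were lower in UN-RG pups alone, 63 were higher in NN pups alone, 1 passed in both and 157 in neither. UN-RG-Veh had the lowest of the 4 group means in 201 of the 302 higher clusters and the highest in 240 of the 365 lower ones. The interaction itself favours an extreme UN-RG-Veh or NN-TU mean, and over all clusters UN-RG-Veh was lowest in 27.8% and highest in 27.4%.

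*Lyve1*, the hyaluronan receptor found on lymphatic endothelium and on a class of macrophages that live in the tissue, had the smallest p in the interaction. Its log2 values were 12.34, 12.42, 12.17 and 12.63 in UN-RG-TU, against 11.23, 11.12, 11.57 and 11.21 in UN-RG-Veh. In NN pups it had 12.15, 11.73, 12.75 and 12.48 in NN-TU, against 12.68, 12.94, 12.73 and 12.73 in NN-Veh. Every UN-RG-TU array lay above every UN-RG-Veh array, while 3 of the NN-TU arrays lay below every NN-Veh array and the remaining one, replicate 7, lay inside their range. The TU effect was 1.11 (SE 0.18) in UN-RG pups and −0.49 (SE 0.18) in NN pups, and the interaction was 1.60 (SE 0.26, 95% interval 1.06 to 2.15), with an adjusted p of 0.261 by limma. Leaving out 1 array at a time gave 1.42 to 1.76, and without NN-TU replicate 7 its adjusted p was 0.0416, the 1 call made in the 16 runs. In whole tissue, fewer cells of a type and less RNA per cell cannot be told apart, for *Lyve1* and for every gene below.

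*Reep1* codes for a protein that shapes the tubules of the endoplasmic reticulum. Its values were 8.37, 7.92, 8.10 and 8.01 in UN-RG-TU, against 7.79, 7.47, 7.34 and 7.70 in UN-RG-Veh. They were 8.01, 7.88, 7.67 and 7.78 in NN-TU, against 8.17, 8.18, 8.14 and 8.42 in NN-Veh. With TU all 4 UN-RG arrays were above, and all 4 NN arrays below, every vehicle array of their background. The interaction was 0.92 (SE 0.19, 95% interval 0.52 to 1.32), from 0.53 in UN-RG pups and −0.39 in NN pups.

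*Acta2*, the actin of smooth muscle and of activated stromal cells, behaved alike, with 15.58, 15.50, 15.97 and 15.59 in UN-RG-TU, against 15.16, 15.28, 15.32 and 14.68 in UN-RG-Veh. Its NN values were 15.07, 15.29, 15.40 and 15.19 in NN-TU, against 15.52, 16.27, 15.72 and 15.66 in NN-Veh. Again the groups did not overlap in either background, higher with TU in UN-RG pups and lower with TU in NN pups. The interaction was 1.11 (SE 0.25, 95% interval 0.58 to 1.64), and it was 0.84 without the 4 arrays with cilia transcripts. *Cd200*, the ligand of an inhibitory receptor on myeloid cells, and *Dhx35*, an RNA helicase, were the other clusters without overlap in both backgrounds, and were named for it after their values were seen. *Cd200* had 8.23, 7.64, 7.94 and 7.68 in UN-RG-TU, against 7.52, 7.29, 7.38 and 7.55 in UN-RG-Veh. The NN arrays gave 7.32, 7.47, 7.38 and 7.55 in NN-TU, against 7.58, 7.75, 7.73 and 7.77 in NN-Veh. All arrays with TU were higher in UN-RG pups and lower in NN pups, the second by less than 1.3-fold (0.44 and −0.28), and the interaction was 0.72 (SE 0.18). *Dhx35* went the other way, lower in all UN-RG arrays with TU and higher in all NN arrays with TU, by less than 1.3-fold in each (−0.34 and 0.19), with an interaction of −0.53 (SE 0.17). The last cluster past the thresholds in opposite directions, *Olfr1264*, an olfactory receptor named to complete the count, averaged below the negative controls in all groups, and its interaction of −0.96 is not read further.

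**Figure D2:**
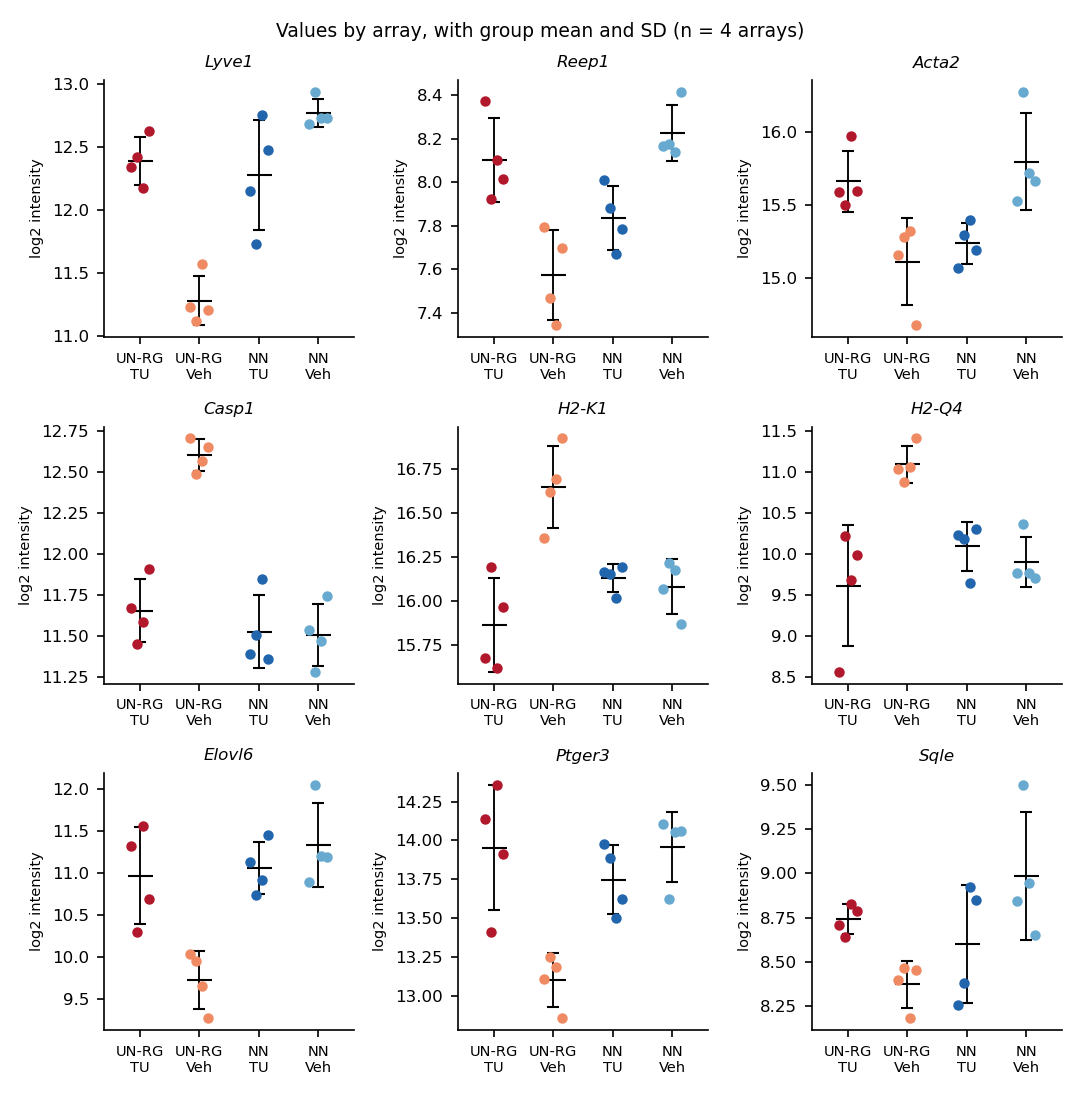
Log2 intensity of 9 genes in each array (points), with the group mean and SD (n = 4 arrays), for UN-RG-TU, UN-RG-Veh, NN-TU and NN-Veh from left to right. The means of *Lyve1*, *Reep1* and *Acta2* are lowest in UN-RG-Veh and highest in NN-Veh, those of *Casp1*, *H2-K1* and *H2-Q4* are highest in UN-RG-Veh, and those of *Elovl6*, *Ptger3* and *Sqle* are lowest there.

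The most frequent calls by list were among targets of interferon-γ. Guanylate-binding proteins (GBPs) and immunity-related GTPases (IRGs) are large GTPases that interferon-γ turns on and that attack the vacuoles of pathogens inside the cell. Of 12 measured members, 9 were lower in the interaction and 0 higher, where 1.64% of all clusters were lower. The median interaction was −0.74, beside −0.72 in UN-RG pups, where 7 were lower, and 0.17 in NN pups, where 0 passed in either direction. All 12 were below 0 in UN-RG pups, and 9 of 12 were above 0 in NN pups. The interferon-stimulated response element (ISRE) in promoters of such genes binds interferon regulatory factors. The promoters of 5 of the 9 lower members are shown, the 5 with an entry in the promoter table used, and all 5 hold a match to the ISRE. Each is the 120 bases before the start of transcription from RefSeq, build GRCm38.p6, plus strand, 5′ to 3′, with ISRE (GAAANNGAAA, or TTTCNNTTTC on the other strand) matches in capitals. The motif was searched on both strands. The 5 stretches lie at chr3:142620543-142620662 (*Gbp2*), chr3:142559924-142560043 (*Gbp3*), chr3:142530216-142530335 (*Gbp7*), chr11:58199436-58199555 (*Igtp*) and chr11:58214857-58214976 (*Irgm2*).
Gbp2: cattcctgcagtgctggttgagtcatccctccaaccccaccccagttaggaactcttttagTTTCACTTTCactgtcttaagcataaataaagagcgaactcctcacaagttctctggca
Gbp3: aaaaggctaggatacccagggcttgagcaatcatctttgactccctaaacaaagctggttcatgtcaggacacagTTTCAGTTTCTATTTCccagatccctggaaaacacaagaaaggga
Gbp7: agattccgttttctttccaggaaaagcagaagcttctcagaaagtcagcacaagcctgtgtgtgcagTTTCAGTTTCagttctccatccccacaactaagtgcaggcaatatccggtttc
Igtp: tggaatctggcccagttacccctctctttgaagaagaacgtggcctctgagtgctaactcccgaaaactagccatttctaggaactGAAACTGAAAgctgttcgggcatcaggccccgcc
Irgm2: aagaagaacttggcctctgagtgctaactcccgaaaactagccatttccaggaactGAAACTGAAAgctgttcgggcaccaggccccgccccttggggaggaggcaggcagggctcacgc

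In *Igtp* and *Irgm2* the ISRE has the same letters and begins 34 and 64 bases before the start. The sequences around it are near copies of one another in these genes, so they are not separate cases. The ISRE of *Gbp2* begins 59 bases before it and that of *Gbp7* 53 bases. In *Gbp3* the ISRE matches begin 45 and 39 bases before the start and overlap. Of the 12 measured members, 7 had an entry in the promoter table, and all 7 held an ISRE in the 250 bases before the start, against 2.98% of the 32851 promoters in that table. Of the other interferon lists, those genes with an entry held an ISRE in 3 of 7 for MHC class I, 0 of 8 for the immunoproteasome and peptide transport and 9 of 18 for targets of type I interferon. A match is a run of letters and not a shown binding site. The GTPases were listed as targets of interferon-γ, so these shares describe the list and not the interaction. *Gbp4*, *Gbp8*, *Gbp9*, *Iigp1* and *Gvin1* were not among the 7.

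*Igtp* had 7.91, 8.53, 8.13 and 7.83 in UN-RG-TU, against 8.85, 8.54, 9.49 and 9.37 in UN-RG-Veh. NN pups had 8.92, 8.48, 8.51 and 8.91 in NN-TU, against 8.68, 9.00, 8.35 and 8.58 in NN-Veh. The UN-RG-TU arrays were all below the UN-RG-Veh arrays, narrowly at the closest pair, and the NN groups overlapped widely. Its interaction was −1.02 (SE 0.31, 95% interval −1.67 to −0.37). *Gbp2* had 11.90, 12.38, 12.30 and 12.37 in UN-RG-TU, against 12.98, 13.01, 13.32 and 12.64 in UN-RG-Veh, again without overlap. Among NN arrays there were 12.64, 12.23, 12.48 and 12.29 in NN-TU, against 12.64, 12.48, 12.38 and 12.33 in NN-Veh, with overlap, and the interaction was −0.70 (SE 0.22, 95% interval −1.17 to −0.24).

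*Irgm2* was at −0.93 (SE 0.34) and *Gbp7* at −0.57 (SE 0.22) in the interaction, with UN-RG groups that overlapped in both genes. The other 5 lower members were named to complete the count, after their values were seen. They were *Iigp1* at −1.06, *Gbp4* at −0.86, *Gbp8* at −0.71, *Gbp3* at −0.65 and *Gbp9* at −0.60, and each could lose its call. *Gbp4* missed the thresholds without UN-RG-TU 13 or UN-RG-Veh 11 or 12 (−0.76 to −0.66). *Gbp9* missed the thresholds without UN-RG-TU 16, UN-RG-Veh 12 or NN-TU 6 (−0.53 to −0.44). *Gbp8* missed the thresholds without UN-RG-TU 16, UN-RG-Veh 11 or 12, NN-TU 5 or NN-Veh 4 (−0.61 to −0.55) or without the 4 arrays with cilia transcripts (−0.65). *Iigp1* missed the thresholds without UN-RG-TU 13 or 16, UN-RG-Veh 11 or 12, NN-TU 5 or 6 or NN-Veh 3 (−1.02 to −0.85), and *Gbp3* passed, of the 16 runs with 1 array left out, only in those without UN-RG-TU 14 or 15, UN-RG-Veh 9 or 10, NN-TU 6 or 7 or NN-Veh 1, and gave −0.65 to −0.49 in the other 9 and −0.57, also short of the thresholds, without the 4 arrays with cilia transcripts. UN-RG-Veh replicate 12 is among the arrays for all 5, while *Igtp*, *Gbp2*, *Irgm2* and *Gbp7* kept their calls with each array left out. With each array left out in turn the list median stayed between −0.88 and −0.62, and without the 4 arrays with cilia transcripts it was −0.78, with 8 lower. Several GBPs are near copies of one another and probes may read more than 1 of them, so their count is not that of independent genes.

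**Figure D3:**
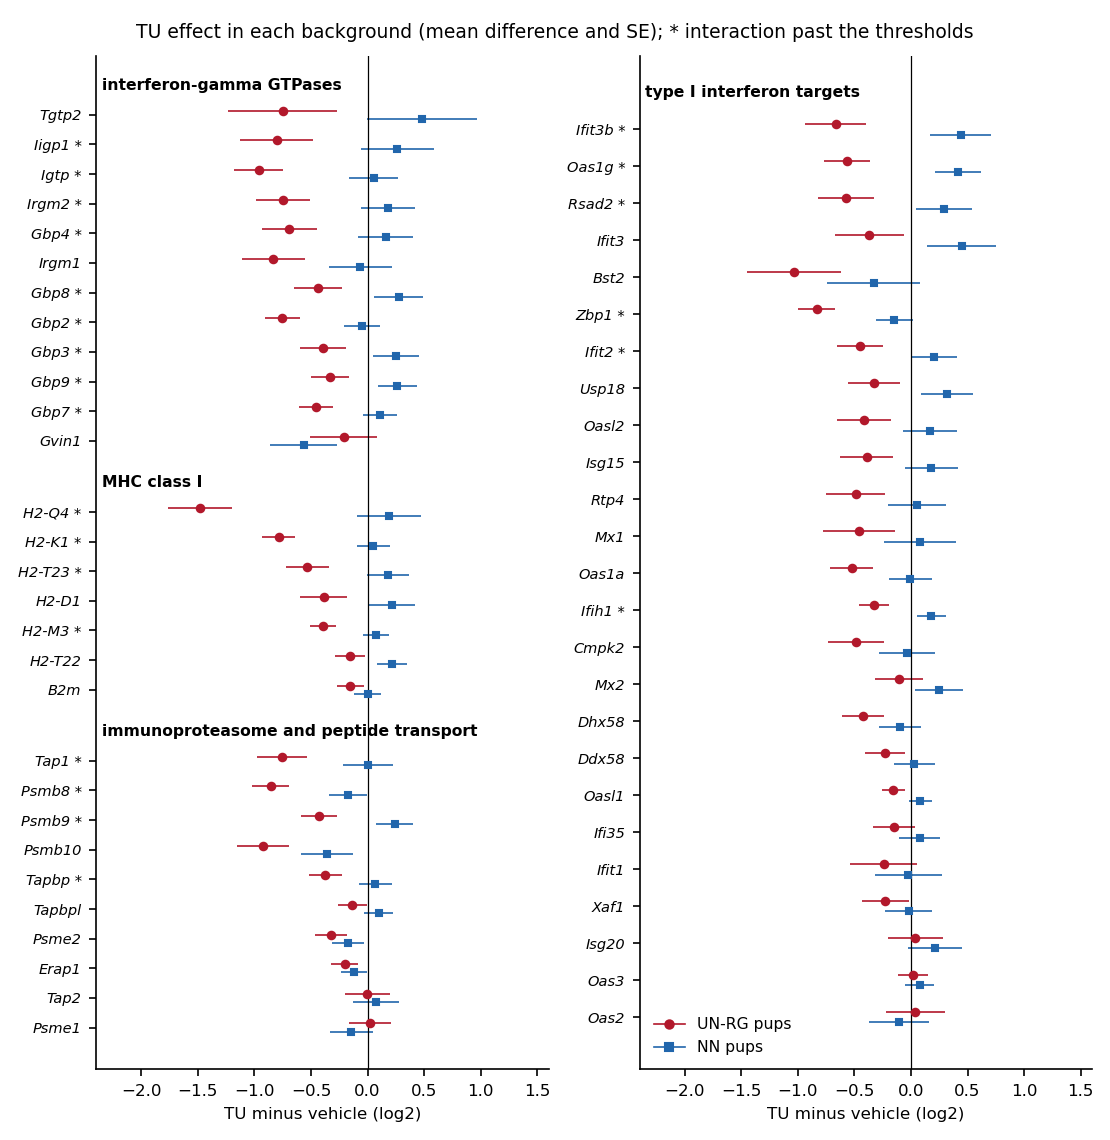
TU effect in UN-RG pups (circles) and NN pups (squares), log2 with SE, for every measured member of 4 lists, ordered by interaction, with a star where it passed the thresholds. UN-RG estimates lie left of 0 for nearly all members, and NN estimates lie on both sides of 0, with *Gvin1*, *Psmb10* and *Bst2* farthest to the left.

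Class I MHC molecules show peptides from inside the cell to T cells. Of 7 measured genes 4 were lower in the interaction and 0 higher, against 1.64% and 1.36% of all clusters. All 7 estimates were below 0, with a median of −0.60. The medians were −0.39 in UN-RG pups, where the same 4 were lower, and 0.18 in NN pups, where 0 passed. *H2-K1*, a classical class I heavy chain, had 15.68, 16.19, 15.62 and 15.97 in UN-RG-TU, against 16.36, 16.62, 16.69 and 16.93 in UN-RG-Veh. For NN pups the values were 16.16, 16.15, 16.02 and 16.19 in NN-TU, against 16.07, 16.22, 16.18 and 15.87 in NN-Veh. The UN-RG-Veh arrays stood above all 12 others, which overlapped, and the interaction was −0.83 (SE 0.21, 95% interval −1.27 to −0.39).

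*H2-Q4*, from the Q region of the MHC, had 8.56, 10.22, 9.68 and 9.99 in UN-RG-TU, against 11.03, 10.88, 11.06 and 11.42 in UN-RG-Veh. In NN pups it had 10.23, 10.18, 9.64 and 10.31 in NN-TU, against 9.77, 10.37, 9.77 and 9.71 in NN-Veh. The UN-RG-Veh arrays were above all 12 others, with an interaction of −1.67 (SE 0.40, 95% interval −2.52 to −0.83). *H2-Q5*, a neighbour in that region, was at −1.60 (SE 0.38), but class I genes are similar in sequence and the probes of 1 may read the other. *H2-T23*, the class I-like molecule known as Qa-1, was at −0.71 (SE 0.26) and *H2-M3*, which presents formylated peptides, at −0.47 (SE 0.16). *H2-M3* missed the thresholds without the 4 arrays with cilia transcripts (−0.43).

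The immunoproteasome cuts proteins into peptides for class I, and the TAP transporter carries them into the endoplasmic reticulum. Of 10 genes 4 were lower and 0 higher in the interaction, against 1.64% and 1.36% of all clusters. The median was −0.34, beside −0.35 in UN-RG pups and −0.06 in NN pups. *Psmb8*, a catalytic subunit, had 9.73, 10.05, 10.12 and 9.91 in UN-RG-TU, against 11.22, 10.66, 10.80 and 10.57 in UN-RG-Veh, with no overlap. Its NN values were 10.35, 10.13, 10.22 and 9.74 in NN-TU, against 10.02, 10.47, 10.41 and 10.22 in NN-Veh, with overlap, and the interaction was −0.69 (SE 0.24, 95% interval −1.19 to −0.19). *Psmb9*, another catalytic subunit, was at −0.67 (SE 0.23). *Tap1*, a subunit of the transporter, was at −0.76 (SE 0.31). It missed the thresholds without UN-RG-Veh 12 or NN-TU 5 (−0.68 to −0.65). *Tapbp*, tapasin, was at −0.44 (SE 0.21) and passed, of the 16 runs with 1 array left out, only in those without UN-RG-TU 16, UN-RG-Veh 9 or NN-Veh 1 or 3, and gave −0.46 to −0.34 in the other 12 and −0.38, also short of the thresholds, without the 4 arrays with cilia transcripts. Class II molecules, which show peptides from outside the cell, gave no call in 9 genes. TU lowered 3 of them in UN-RG pups, where it lowered 3.18% of all clusters. The median interaction was −0.16 and ran from −0.26 (without UN-RG-TU 16) to 0.03 (without UN-RG-TU 13) with 1 array left out. Without the 4 arrays with cilia transcripts it was −0.33, with 1 gene lower.

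Targets of type I interferon followed, with 6 of 25 lower in the interaction and 0 higher, against 1.64% and 1.36% of all clusters. The median was −0.52, and 24 of the 25 estimates were below 0. Without UN-RG-Veh replicate 12 the median was −0.34. TU effects had a median of −0.39 in UN-RG pups, with 8 lower, and 0.08 in NN pups, with 0 past the thresholds. *Ifit3b*, of the family that binds viral RNA, had 10.42, 10.56, 10.53 and 10.46 in UN-RG-TU, against 10.86, 10.92, 10.81 and 12.03 in UN-RG-Veh. The NN arrays gave 10.69, 10.71, 10.72 and 11.60 in NN-TU, against 10.56, 10.95, 9.99 and 10.48 in NN-Veh. UN-RG-TU lay below UN-RG-Veh without overlap, the NN groups overlapped, and in each of the 4 groups the array with cilia transcripts was the highest. The interaction was −1.10 (SE 0.38, 95% interval −1.91 to −0.30), and −0.76 without these 4 arrays. It kept its call there and with each array left out. *Zbp1*, a sensor of nucleic acids that can start cell death, was at −0.69 (SE 0.23), with only the UN-RG-Veh mean above the negative controls. *Ifih1*, the RNA sensor MDA5, was at −0.51 (SE 0.19), *Rsad2*, viperin, at −0.86 (SE 0.35), and *Ifit2* at −0.66 (SE 0.29), the last 2 named after their values were seen. *Rsad2* missed the thresholds without UN-RG-TU 13 or UN-RG-Veh 12 (−0.62 to −0.61). *Ifit2* passed, of the 16 runs with 1 array left out, only in those without UN-RG-TU 14 or 16, UN-RG-Veh 10 or 11, NN-TU 6 or NN-Veh 3, and gave −0.64 to −0.50 in the other 10 and −0.52, also short of the thresholds, without the 4 arrays with cilia transcripts. *Oas1g*, an oligoadenylate synthetase, was at −0.98 (SE 0.29) but its group means lay below the negative controls.

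Among the interferons, receptors and transcription factors themselves few calls were seen. *Ifngr1*, the chain of the interferon-γ receptor that binds the cytokine, had 14.31, 14.34, 14.34 and 14.30 in UN-RG-TU, against 14.54, 14.30, 14.32 and 14.26 in UN-RG-Veh. NN pups had 14.32, 14.74, 14.61 and 14.47 in NN-TU, against 14.02, 14.20, 14.24 and 14.13 in NN-Veh. The UN-RG groups overlapped, NN-TU was above NN-Veh in every array, and the interaction was −0.42 (SE 0.16). It missed the thresholds without UN-RG-Veh 9 or NN-TU 6 (−0.36 to −0.35). *Ifng* was at −0.69 (SE 0.23) with group means below the negative controls. *Cxcl9*, a chemokine that interferon-γ induces, was the single call among 25 chemokines, at −0.94 (SE 0.40). It passed, of the 16 runs with 1 array left out, only in those without UN-RG-TU 14 or 15, UN-RG-Veh 9 or 10, NN-TU 6 or 7 or NN-Veh 1 or 2, and gave −0.90 to −0.75 in the other 8 and −0.75, also short of the thresholds, without the 4 arrays with cilia transcripts. With TU, 6 of the 25 were lower in UN-RG pups, with a list median of −0.29, and 8 were lower in NN pups, with a median of −0.31. Over all clusters 3.18% were lower in UN-RG pups and 1.93% in NN pups. The median interaction, 0.08, had no stable sign, running from −0.03 (without UN-RG-TU 14) to 0.30 (without NN-TU 7) with 1 array left out, and was −0.28 without the 4 arrays with cilia transcripts.

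Lymphocytes and macrophages express many of these genes as well, and their markers are given beside them. Of 12 markers of NK and cytotoxic cells 2 were lower in the interaction and 0 higher, against 1.64% and 1.36% of all clusters. Estimates were below 0 in 11 of 12, with a median of −0.43. Their list mean was 5.85 to 6.02 in UN-RG-TU arrays and 6.22 to 6.78 in UN-RG-Veh arrays, and 5.74 to 6.20 in NN-TU arrays and 5.87 to 6.16 in NN-Veh arrays. Only 5 of the 12 had a group mean above the negative controls, so most of this list is at the edge of detection. *Gzma*, a granzyme, was at −1.09 (SE 0.41). *Nkg7*, a granule protein below the negative controls, was at −0.87 (SE 0.34) and missed the thresholds without the 4 arrays with cilia transcripts (−0.85). In 13 T cell genes *Themis*, needed for T cell development, was lower at −1.12 (SE 0.32) and *Cd3d*, a chain of the receptor complex, higher at 0.55 (SE 0.21), with *Cd3d* and 7 other genes of the list below the negative controls. The mean of *Themis* was above them in UN-RG-Veh alone. *Cd3d* missed the thresholds without the 4 arrays with cilia transcripts (0.42). The T cell list mean was 6.15 to 6.48 in UN-RG-TU arrays and 6.38 to 6.71 in UN-RG-Veh arrays, and 6.11 to 6.47 in NN-TU arrays and 6.13 to 6.42 in NN-Veh arrays. Of 15 genes of macrophages in general 1 was lower, *Fcgr4*, an Fc receptor, at −1.14 (SE 0.40), and the list median was −0.24, beside −0.54 in UN-RG pups (7 lower) and −0.17 in NN pups (1 lower). The median ran from −0.49 (without NN-TU 8) to −0.12 (without NN-TU 7) with 1 array left out. The mean of *Fcgr4* was above the negative controls in UN-RG-Veh alone, and it missed the thresholds without the 4 arrays with cilia transcripts (−0.85). Their list mean was 11.34 to 12.10 in UN-RG-TU arrays and 12.13 to 12.35 in UN-RG-Veh arrays, and 10.89 to 12.15 in NN-TU arrays and 11.46 to 12.06 in NN-Veh arrays. The part of these cells in the interferon result was not tested.

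The study picked 7 genes from these arrays to follow up, and their direction here is therefore no independent evidence. The study measured them again by quantitative RT-PCR and reported no significant TU effect on any of them in NN pups. In UN-RG pups it reported a significant TU effect on each of them except *Casp1*, in the direction seen on the arrays. It also reported no significant difference between UN-RG-Veh and NN-Veh in *Casp1* or in *Ptgs2*, and gave no explanation for *Casp1*. In the interaction on the arrays 3 of the 7 were lower, 2 higher and 2 did not pass. *Casp1*, the protease that matures interleukin-1β, had 11.67, 11.45, 11.59 and 11.91 in UN-RG-TU, against 12.71, 12.48, 12.57 and 12.65 in UN-RG-Veh. Among NN arrays there were 11.39, 11.50, 11.84 and 11.36 in NN-TU, against 11.54, 11.28, 11.47 and 11.74 in NN-Veh. The 4 UN-RG-Veh arrays stood above the 12 others, and the interaction was −0.97 (SE 0.20, 95% interval −1.38 to −0.55), from −0.95 in UN-RG pups and 0.02 in NN pups. *Ubd*, a ubiquitin-like protein induced by interferon-γ, had 5.69, 7.98, 7.75 and 9.15 in UN-RG-TU, against 10.30, 10.61, 10.38 and 10.56 in UN-RG-Veh. For NN pups the values were 6.60, 7.97, 9.00 and 6.83 in NN-TU, against 7.92, 8.14, 9.43 and 8.46 in NN-Veh, which overlapped. The interaction was −1.93 (SE 0.85, 95% interval −3.73 to −0.14). It passed, of the 16 runs with 1 array left out, only in those without UN-RG-TU 14, 15 or 16, UN-RG-Veh 9 or 11, NN-TU 5 or 8 or NN-Veh 3, and gave −1.92 to −1.28 in the other 8.

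*Hpx*, which binds free heme, had 5.52, 5.94, 5.67 and 5.38 in UN-RG-TU, against 5.69, 7.13, 7.25 and 8.01 in UN-RG-Veh. In NN pups it had 5.72, 5.63, 5.39 and 5.55 in NN-TU, against 5.55, 5.05, 5.73 and 5.57 in NN-Veh. Only UN-RG-Veh replicates 10, 11 and 12 were above the negative controls, and the interaction of −1.49 (SE 0.47) reads these 3 arrays against arrays at background. *Agt*, angiotensinogen, was at 0.99 (SE 0.46) and passed, of the 16 runs with 1 array left out, only in those without UN-RG-TU 16, UN-RG-Veh 9 or 12, NN-TU 5 or 8 or NN-Veh 3 or 4, and gave 0.71 to 1.03 in the other 9 and 0.94, also short of the thresholds, without the 4 arrays with cilia transcripts. *Saa3*, an acute phase protein, was at −1.79 (SE 1.03, 95% interval −3.96 to 0.39) and *S100a8*, an alarmin of myeloid cells, at −1.32 (SE 0.62, 95% interval −2.64 to 0.01). TU lowered *Saa3* in UN-RG pups (−3.29 (SE 0.73)) and at −1.51 (SE 0.73) in NN pups, short of the thresholds. *S100a8* was lower with TU in both, by −2.50 (SE 0.44) in UN-RG pups and −1.18 (SE 0.44) in NN pups. For neither gene did the interaction pass in the fit used above, and the intervals reach to a large difference. Without the 4 arrays with cilia transcripts both passed, *Saa3* at −2.27 and *S100a8* at −1.61. *Saa3* also passed without UN-RG-TU 16, NN-TU 8 or NN-Veh 3 (−2.27 to −2.23), and *S100a8* without UN-RG-TU 14, NN-TU 5 or 8 or NN-Veh 3 or 4 (−1.65 to −1.46). With all arrays kept, *S100a8* passed with median centring (−1.36), quantile normalization (−1.43) and log2 of the value plus 16 (−1.29). A term for the arrays with cilia transcripts also let *S100a8* pass (−1.32).

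Prostaglandins are made from arachidonic acid by cyclooxygenases and later synthases and act through G protein-coupled receptors. Of 16 genes of these and the lipoxygenase pathway 4 were higher in the interaction and 0 lower, against 1.36% and 1.64% of all clusters. All 4 of them were higher with TU in UN-RG pups. *Ptger3*, the receptor through which prostaglandin E2 restrains lipolysis in fat cells, had 14.14, 13.41, 14.35 and 13.91 in UN-RG-TU, against 13.11, 13.25, 13.19 and 12.85 in UN-RG-Veh. Its NN values were 13.98, 13.89, 13.50 and 13.62 in NN-TU, against 14.11, 13.62, 14.05 and 14.06 in NN-Veh. UN-RG-Veh lay below all 12 other arrays, which overlapped, and the interaction was 1.07 (SE 0.26, 95% interval 0.51 to 1.62). *Ptgs2*, cyclooxygenase-2, was among the 7 study genes. It had 5.52, 6.07, 5.76 and 5.28 in UN-RG-TU, against 4.57, 4.65, 4.79 and 4.42 in UN-RG-Veh. The NN arrays gave 5.27, 5.22, 4.91 and 4.61 in NN-TU, against 5.63, 4.91, 5.43 and 5.40 in NN-Veh. Its interaction of 1.39 (SE 0.27, 95% interval 0.81 to 1.97) had the smallest p after that of *Lyve1*, but every array lay below the mean level of the negative controls. *Alox15*, a lipoxygenase of macrophages, was at 1.24 (SE 0.42), without overlap in UN-RG pups. *Ptgis*, prostacyclin synthase, was at 0.66 (SE 0.27) and missed the thresholds without UN-RG-TU 15 or 16, UN-RG-Veh 9, NN-TU 6 or 8 or NN-Veh 4 (0.50 to 0.62). The list median, 0.16, ran from −0.03 (without UN-RG-TU 14) to 0.35 (without NN-Veh 1) with 1 array left out, and was −0.03, with 5 genes higher, without the 4 arrays with cilia transcripts.

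Fat cells make fatty acids from citrate through ATP citrate lyase, acetyl-CoA carboxylase and fatty acid synthase, and insulin drives the pathway. Of 13 genes 3 were higher in the interaction and 0 lower, against 1.36% and 1.64% of all clusters. The median was 0.31, beside 0.22 in UN-RG pups (5 higher, 1 lower) and −0.08 in NN pups (0 past the thresholds). *Elovl6*, which lengthens saturated fatty acids, had 11.32, 10.30, 11.56 and 10.69 in UN-RG-TU, against 10.03, 9.96, 9.65 and 9.27 in UN-RG-Veh. NN pups had 11.13, 10.74, 10.92 and 11.46 in NN-TU, against 10.89, 12.05, 11.20 and 11.19 in NN-Veh. UN-RG-Veh was below all other arrays and the NN groups overlapped. The interaction was 1.51 (SE 0.40, 95% interval 0.66 to 2.37), and leaving out 1 array at a time gave 1.27 to 1.74.

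*Acaca*, acetyl-CoA carboxylase, had 12.86, 11.48, 12.74 and 11.99 in UN-RG-TU, against 11.44, 11.63, 11.58 and 11.28 in UN-RG-Veh. Among NN arrays there were 12.44, 12.03, 11.85 and 12.14 in NN-TU, against 12.28, 12.47, 12.05 and 12.54 in NN-Veh. UN-RG-TU replicates 13 and 15 were well above UN-RG-Veh, while replicate 14 was inside its range, and the interaction was 1.0 (SE 0.34, 95% interval 0.27 to 1.73). *Acly*, ATP citrate lyase, was at 0.58 (SE 0.27) and passed, of the 16 runs with 1 array left out, only in those without UN-RG-TU 14 or 16, UN-RG-Veh 10 or 11, NN-TU 8 or NN-Veh 1 or 3, and gave 0.44 to 0.60 in the other 9 and 0.54, also short of the thresholds, without the 4 arrays with cilia transcripts. *Angptl8*, a secreted inhibitor of lipoprotein lipase that insulin induces, had 8.26, 8.15, 10.71 and 10.33 in UN-RG-TU, against 9.09, 8.73, 8.21 and 7.67 in UN-RG-Veh. For NN pups the values were 9.49, 8.05, 8.37 and 7.52 in NN-TU, against 9.26, 10.72, 8.84 and 10.02 in NN-Veh. Both pairs of groups overlapped, higher on average with TU in UN-RG pups (0.94, not past the thresholds) and lower in NN pups (−1.35, past them), for an interaction of 2.29 (SE 0.83, 95% interval 0.54 to 4.04). It kept its call with each array left out.

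*Pdk4*, the kinase that inhibits pyruvate dehydrogenase and so spares glucose, went the other way, at −1.42 (SE 0.61). Its UN-RG values were 10.10, 10.56, 9.82 and 10.21 in UN-RG-TU, against 9.86, 11.25, 10.85 and 12.75 in UN-RG-Veh. UN-RG-Veh replicate 12 was the highest of the 16 arrays, and the UN-RG groups overlapped. The interaction missed the thresholds without UN-RG-TU 13 or 15, UN-RG-Veh 10 or 12, NN-TU 6 or 8 or NN-Veh 2 (−1.40 to −0.89) or without the 4 arrays with cilia transcripts (−0.73). *Sqle*, squalene epoxidase of cholesterol synthesis, was the 1 call among 16 genes of that pathway. It had 8.71, 8.64, 8.83 and 8.79 in UN-RG-TU, against 8.40, 8.46, 8.18 and 8.45 in UN-RG-Veh. In NN pups it had 8.26, 8.38, 8.92 and 8.85 in NN-TU, against 8.84, 9.50, 8.94 and 8.65 in NN-Veh. UN-RG-TU was above UN-RG-Veh without overlap, 2 of the 4 NN-TU arrays were below all NN-Veh arrays, and the interaction was 0.75 (SE 0.25, 95% interval 0.22 to 1.28). The pathway's median was −0.18 in UN-RG pups (2 lower) and −0.26 in NN pups (4 lower), and the median interaction was 0.05, or −0.02 without the 4 arrays with cilia transcripts. *Retn*, resistin, an adipocyte hormone, was the 1 call among 14 genes of adipocyte identity, at 0.67 (SE 0.24).

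**Figure D4:**
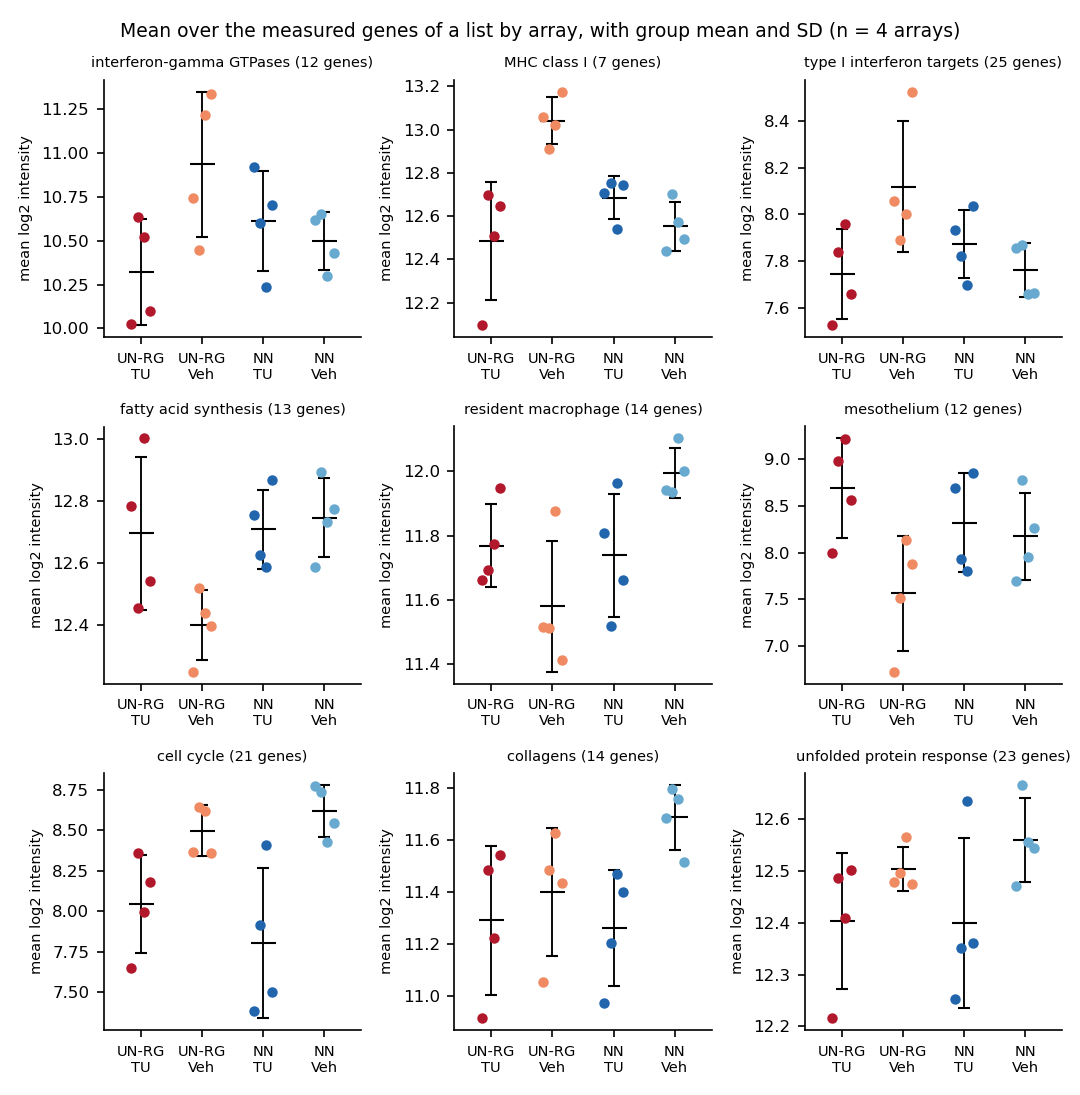
Mean log2 intensity over the measured genes of 9 lists in each array (points), with the group mean and SD (n = 4 arrays). The interferon-γ GTPases, MHC class I and type I interferon targets are highest in UN-RG-Veh, fatty acid synthesis and mesothelium are lowest there, and the mean of the cell cycle genes is lower with TU in both backgrounds.

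Macrophages that live in the tissue carry *Lyve1* together with scavenger and lectin receptors. Of 14 such markers 3 were higher in the interaction and 0 lower, against 1.36% and 1.64% of all clusters. Estimates were above 0 in 13 of 14, with a median of 0.29. The medians of the TU effects were 0.13 in UN-RG pups (3 higher) and −0.32 in NN pups (2 lower). Besides *Lyve1* the genes higher in the interaction were *Retnla* and *Mgl2*. *Retnla*, secreted by alternatively activated macrophages, had 17.18, 17.16, 17.17 and 17.41 in UN-RG-TU, against 17.09, 16.52, 17.03 and 15.67 in UN-RG-Veh. Its NN values were 17.18, 17.15, 17.20 and 17.39 in NN-TU, against 17.23, 17.49, 17.43 and 17.28 in NN-Veh, and the interaction was 0.78 (SE 0.32). UN-RG-Veh replicates 10 and 12 were the lowest arrays, and UN-RG-TU did not overlap UN-RG-Veh. The call missed the thresholds without UN-RG-TU 16 (0.72). *Mgl2*, a galactose lectin, was at 0.85 (SE 0.37) and passed, of the 16 runs with 1 array left out, only in those without UN-RG-TU 13 or 15, UN-RG-Veh 9, 10 or 11, NN-TU 7 or NN-Veh 3 or 4, and gave 0.52 to 0.84 in the other 8 and 0.41, also short of the thresholds, without the 4 arrays with cilia transcripts. Macrophages that take up lipid gave 0 calls in 15 genes in the interaction. The median was −0.24, beside −0.49 in UN-RG pups (1 lower) and −0.14 in NN pups (0 past the thresholds). With 1 array left out the median interaction ran from −0.37 (without NN-TU 8) to 0.05 (without NN-TU 7).

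Smooth muscle and pericyte genes had 3 higher and 1 lower of 14 in the interaction, against 1.36% and 1.64% of all clusters. Besides *Acta2*, *Tagln*, an actin-binding protein of smooth muscle, was at 0.82 (SE 0.35) and *Actg2*, the enteric actin, at 1.56 (SE 0.69), below the negative controls. *Tagln* missed the thresholds without UN-RG-TU 14 or 15, UN-RG-Veh 10 or 11, NN-TU 5 or 6 or NN-Veh 2 (0.53 to 0.79) or without the 4 arrays with cilia transcripts (0.77). *Actg2* missed the thresholds without UN-RG-TU 14, UN-RG-Veh 9 or 11, NN-TU 5, 6 or 7 or NN-Veh 2 (1.13 to 1.50). *Kcnj8*, a potassium channel of pericytes, was at −0.58 (SE 0.27) and passed, of the 16 runs with 1 array left out, only in those without UN-RG-TU 15 or 16, UN-RG-Veh 10, NN-TU 7 or 8 or NN-Veh 3, and gave −0.60 to −0.40 in the other 10 and −0.58, also short of the thresholds, without the 4 arrays with cilia transcripts.

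Of 21 cell cycle genes TU lowered 7 in UN-RG pups, with a median of −0.49, and 16 in NN pups, with a median of −0.87. Over all clusters TU lowered 3.18% in UN-RG pups and 1.93% in NN pups. Only 2 of the cell cycle genes were past the thresholds in the interaction, both higher, against 1.36% of all clusters. *Cep55*, of the last step of cell division, had 7.18, 8.19, 8.25 and 8.02 in UN-RG-TU, against 7.85, 8.25, 8.28 and 7.99 in UN-RG-Veh. The NN arrays gave 6.88, 6.90, 7.72 and 7.22 in NN-TU, against 8.57, 8.06, 8.18 and 8.50 in NN-Veh. The UN-RG groups overlapped while NN-TU was below NN-Veh in every array, and the interaction was 0.96 (SE 0.33, 95% interval 0.27 to 1.66). *Bub1*, a checkpoint kinase, was at 1.11 (SE 0.51), with only the NN-Veh mean above the negative controls, and passed, of the 16 runs with 1 array left out, only in those without UN-RG-TU 13 or 15, NN-TU 7 or NN-Veh 3, and gave 0.86 to 1.14 in the other 12 and 0.54, also short of the thresholds, without the 4 arrays with cilia transcripts. The list median of the interaction, 0.31, ran from 0.20 (without UN-RG-TU 14) to 0.52 (without NN-TU 7) with 1 array left out, and was 0.07 without the 4 arrays with cilia transcripts. Of 14 collagens 1 was lower in UN-RG pups and 5 in NN pups, and 2 were higher in the interaction. *Col15a1*, a collagen of basement membranes, was at 0.67 (SE 0.19) and kept its call with each array left out. *Col5a1*, a fibrillar collagen, was at 0.46 (SE 0.21) and passed, of the 16 runs with 1 array left out, only in those without UN-RG-TU 13, UN-RG-Veh 10 or 11, NN-TU 7 or NN-Veh 4, and gave 0.38 to 0.47 in the other 11 and 0.36, also short of the thresholds, without the 4 arrays with cilia transcripts.

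Mesothelium is the layer that covers the fat pad. Of 12 markers 4 were higher in the interaction and 0 lower, against 1.36% and 1.64% of all clusters. The median was 1.18, beside 1.21 in UN-RG pups (7 higher) and 0.24 in NN pups (0 past the thresholds). Their list mean was 7.99 to 9.22 in UN-RG-TU and 6.72 to 8.14 in UN-RG-Veh, and 7.81 to 8.85 in NN-TU and 7.70 to 8.78 in NN-Veh. *Lrrn4* had 7.59, 7.99, 9.31 and 8.62 in UN-RG-TU, against 6.06, 6.76, 7.83 and 6.77 in UN-RG-Veh. NN pups had 8.46, 7.49, 7.31 and 7.91 in NN-TU, against 7.33, 7.68, 8.06 and 8.10 in NN-Veh. UN-RG-TU and UN-RG-Veh overlapped in 1 array each, the NN groups overlapped throughout, and the interaction was 1.52 (SE 0.54, 95% interval 0.38 to 2.67). *Krt7*, a keratin, was at 1.04 (SE 0.39), *Gpm6a* at 1.58 (SE 0.66) and *Msln*, mesothelin, at 1.31 (SE 0.54). *Gpm6a* missed the thresholds without UN-RG-TU 15, UN-RG-Veh 9, NN-TU 6 or 7 or NN-Veh 4 (1.02 to 1.50) or without the 4 arrays with cilia transcripts (1.57). *Msln*, whose UN-RG-Veh mean was below the negative controls, missed the thresholds without UN-RG-TU 15, UN-RG-Veh 9 or 12 or NN-TU 7 (1.01 to 1.16) or without the 4 arrays with cilia transcripts (1.20). *Krt7* missed the thresholds without the 4 arrays with cilia transcripts (0.97). Without the 4 arrays with cilia transcripts 1 of the 12, *Lrrn4*, was past the thresholds, and the median was 0.97. The part of mesothelium in the other results was not tested.

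**Figure D5:**
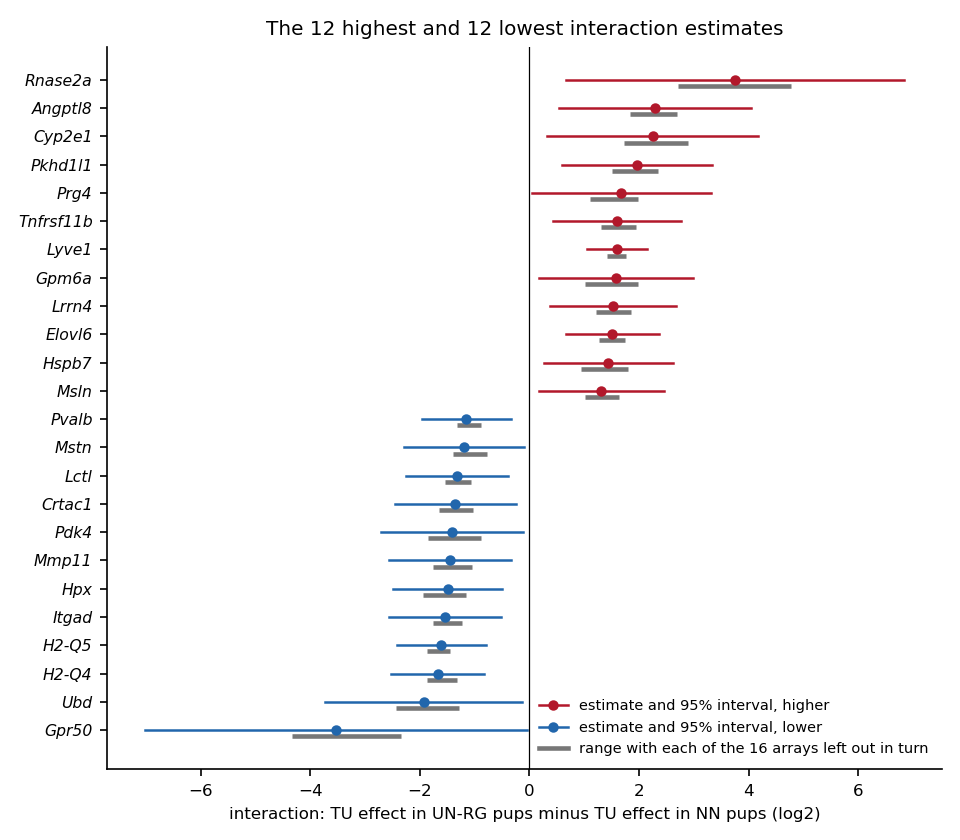
Interaction (log2) with its 95% interval for the 12 genes with the highest and the 12 with the lowest estimate among clusters past the thresholds and above the negative controls, and, in grey, the range of the estimate with each of the 16 arrays left out in turn. *Lyve1* has the narrowest interval among the higher genes, and *Gpr50* and *Rnase2a* have the widest.

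*Rnase2a*, a ribonuclease of eosinophils, had the highest estimate, 3.75 (SE 1.45, 95% interval 0.67 to 6.83). Its values were 11.17, 10.07, 12.33 and 11.19 in UN-RG-TU, against 11.32, 8.88, 7.66 and 5.10 in UN-RG-Veh. Among NN arrays there were 10.51, 12.05, 12.40 and 12.40 in NN-TU, against 10.67, 14.68, 13.16 and 12.06 in NN-Veh. The UN-RG-Veh arrays were spread over more than 6 log2 units and replicate 9 lay inside the range of UN-RG-TU. *Cyp2e1*, an enzyme of the cytochrome P450 family, had 15.75, 16.02, 17.00 and 13.65 in UN-RG-TU, against 12.29, 11.54, 13.85 and 12.64 in UN-RG-Veh. For NN pups the values were 16.29, 16.39, 14.40 and 16.74 in NN-TU, against 15.58, 15.62, 15.10 and 14.42 in NN-Veh. Only UN-RG-TU replicate 16 came down among the UN-RG-Veh arrays. Its interaction of 2.25 (SE 0.91, 95% interval 0.33 to 4.17) missed the thresholds without UN-RG-TU 15, UN-RG-Veh 10 or NN-TU 7 (1.73 to 1.90) or without the 4 arrays with cilia transcripts (2.24).

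*Pkhd1l1*, a large receptor-like protein, had 9.11, 9.30, 10.93 and 10.03 in UN-RG-TU, against 6.47, 7.77, 9.00 and 8.17 in UN-RG-Veh, without overlap. In NN pups it had 9.54, 9.00, 8.79 and 8.98 in NN-TU, against 8.59, 8.80, 9.05 and 9.75 in NN-Veh, with overlap, and the interaction was 1.96 (SE 0.64, 95% interval 0.59 to 3.33). *Tnfrsf11b*, osteoprotegerin, was at 1.60 (SE 0.55) and *Hspb7*, a small heat shock protein, at 1.44 (SE 0.55), and both kept their calls with each array left out. *Prg4*, lubricin, was at 1.68 (SE 0.77), and passed, of the 16 runs with 1 array left out, only in those without UN-RG-TU 13 or 14, UN-RG-Veh 10, NN-TU 5 or 6 or NN-Veh 3, and gave 1.11 to 1.72 in the other 10.

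The lowest interaction, −3.53 (SE 1.64, 95% interval −7.01 to −0.05), was that of *Gpr50*, an orphan receptor of the melatonin family. Its values were 8.21, 11.44, 5.45 and 11.00 in UN-RG-TU, against 13.36, 12.51, 10.93 and 13.79 in UN-RG-Veh. Its NN values were 7.20, 9.95, 10.65 and 6.55 in NN-TU, against 8.69, 7.30, 9.07 and 9.66 in NN-Veh. UN-RG-TU replicate 15 was the lowest of the 16 arrays, and replicates 14 and 16 lay inside the range of UN-RG-Veh. The interaction passed, of the 16 runs with 1 array left out, only in those without UN-RG-TU 14 or 16, UN-RG-Veh 11, NN-TU 5 or 8 or NN-Veh 4, and gave −3.66 to −2.34 in the other 10. *Itgad*, an integrin subunit of macrophages, had 5.87, 6.37, 5.63 and 6.03 in UN-RG-TU, against 7.09, 7.16, 8.15 and 8.68 in UN-RG-Veh. The NN arrays gave 5.26, 6.36, 6.32 and 5.79 in NN-TU, against 6.73, 5.64, 6.37 and 6.04 in NN-Veh. All 4 UN-RG-Veh arrays were above the 12 others, all but 1 of which lay below the negative controls, and the interaction was −1.54 (SE 0.48, 95% interval −2.56 to −0.51).

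*Lctl*, a klotho-related protein, had 11.98, 12.46, 13.19 and 13.35 in UN-RG-TU, against 13.74, 14.29, 13.65 and 13.64 in UN-RG-Veh, and in NN pups 12.52, 12.88, 13.42 and 13.10 in NN-TU, against 12.06, 12.82, 13.42 and 12.65 in NN-Veh. UN-RG-Veh was above all other arrays, and the interaction was −1.32 (SE 0.44, 95% interval −2.25 to −0.39). *Pvalb*, parvalbumin, a calcium buffer known from fast muscle, was at −1.15 (SE 0.39) with 6.34, 7.16, 6.03 and 7.23 in UN-RG-TU, against 8.20, 8.23, 8.06 and 7.98 in UN-RG-Veh. The UN-RG-Veh arrays lay above the 12 others, and the NN-TU mean was below the negative controls. It was the 1 call among 10 skeletal muscle genes, of which 4 had a group mean above the negative controls. *Mstn*, myostatin, which restrains muscle growth, was at −1.20 (SE 0.52) and missed the thresholds without UN-RG-TU 13 or 15, UN-RG-Veh 10 or 11, NN-TU 7 or NN-Veh 2 (−1.07 to −0.77). Its means were below the negative controls in every group except UN-RG-Veh. *Crtac1*, a matrix protein of cartilage, was at −1.35 (SE 0.52). *Mmp11*, a matrix metalloproteinase, was at −1.45 (SE 0.53) and differed from the rest, since the change past the thresholds was a higher level with TU in NN pups (0.99), against −0.46 in UN-RG pups. All 4 NN-Veh arrays lay below the negative controls.

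Lists that bear on the known action of TU gave no call. Of 23 genes of the unfolded protein response 0 were past the thresholds in the interaction or in either background, where 1.36% of all clusters were higher and 1.64% lower in the interaction. The median interaction was 0.04, beside −0.12 in UN-RG pups and −0.17 in NN pups. Its 23 estimates ran from −0.16 to 0.59. Receptors of bile acids and FGF gave 0 of 14, with a median of −0.01, and 9 of the 14 were at or below the negative controls. Oxidative phosphorylation (19 genes, median 0.10), mitochondrial β-oxidation (16 genes, median −0.19), lipolysis (14 genes, median 0.05) and thermogenic fat (13 genes, median 0.08) gave 0 calls each. With 1 array left out or without the 4 arrays with cilia transcripts, the medians of these 6 lists lay between −0.26 and 0.22, and those of the unfolded protein response and of the bile acid and FGF receptors changed sign. Without the 4 arrays 1 gene of thermogenic fat was lower. A threshold that is missed does not show an equal response.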

How the data were processed

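RNA of epididymal adipose tissue from 16 pups, 4 in each of 4 groups, had been hybridized to 1 Clariom S mouse array per pup. The authors used Expression Console and the Transcriptome Analysis Console to process the arrays, and deposited 1 normalized intensity per transcript cluster and array, on a linear scale. Their versions, normalization and genome build are not given in the sources used here. Of 22520 lines, 314 controls were left out, and 22206 clusters were analysed as log2 of the deposited intensity. Of these, 19572 carry 1 gene symbol, for 19505 genes, and 2634 carry none in the annotation used. No column of another sample was present (0 left out).

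A linear model with 1 mean per group was fitted to all 16 arrays with limma 3.58.1 in R 4.3.3 (lmFit and eBayes), and p-values were adjusted over all clusters by the Benjamini-Hochberg method. Intervals are 95% intervals from the moderated fit. Descriptive thresholds were an unadjusted p of 0.05 with a difference of 1.3-fold (0.38 on the log2 scale). The level of no signal was the mean over arrays of the median of the 220 negative control probe sets. The procedure was tested on simulated data with known differences. Precision is limited by the number of arrays.

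Named genes were, among clusters with 1 symbol, past the thresholds and above the negative controls in 1 group or more, the 12 with the highest and the 12 with the lowest interaction, up to 6 with opposite effects past the thresholds in both backgrounds, the 7 genes of the study, and up to 4 members per list by p. Of a gene with several clusters the brightest was used. Exceptions are named as chosen after their values were seen. The comparison, the gene lists and the rule were chosen with earlier results of these data known, and the lists were described by counts and medians with no set test. Promoter sequences were from the RefSeq table of build GRCm38.p6, matched by symbol. Alternatives were a filter on dim clusters, median centring, quantile normalization, 1 cluster per gene, a variance trend with a robust prior, no moderation, array weights, log2 of the value plus 16, and each array left out. After the data were seen, leaving out the 4 arrays with motile cilia transcripts and a term for them in the model were added.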

Additional observations from a re-analysis of the deposited data

Results flagged for a closer look

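In 22 of 440 groups of 4 arrays, over 89 genes and 21 list means, 1 array stood apart from the other 3, with a gap to the nearest, as a share of the group's range, above Dixon's critical value. Chance alone flags about 1 in 20 groups, which is the share seen.

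Arrays with cilia transcripts were among them. UN-RG-Veh replicate 12 was high for *Ifit3b* (12.03, against 10.81 to 10.92 in the other 3) and *Rsad2* (8.85, against 7.84 to 7.92). NN-TU replicate 8 was high for *Ifit3b* (11.60, against 10.69 to 10.72) and *Actg2* (6.35). UN-RG-TU replicate 14 was high for *Themis* (7.12) and *H2-Q5* (9.44). NN-Veh replicate 2 was high for *H2-Q4* (10.37) and low for *Ptger3* (13.62, against 14.05 to 14.11).

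In UN-RG-TU, replicate 13 was low for *Gbp2* (11.90), *H2-T23* (10.48) and *Dhx35* (7.13), and replicate 16 was high for *Retnla* (17.41). Among UN-RG-Veh arrays, replicate 9 was low for *Tapbp* (13.88) and high for the mean of NK and cytotoxic markers (6.78, against 6.22 to 6.30), replicate 10 was high for *Lctl* (14.29) and low for the mean of macrophage markers (12.13, against 12.32 to 12.35). NN-TU replicate 7, the array whose absence gives *Lyve1* its adjusted call, was high for *Bub1* (6.92, against 5.42 to 5.54), *Mstn* (6.53) and the mean of cholesterol synthesis genes (11.70, against 11.25 to 11.28). In NN-Veh, replicate 3 was high for *Ifit2* (7.90) and *Zbp1* (6.38), and replicate 4 for *Reep1* (8.42).

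*Acta2* (interaction 1.11), *Reep1* (0.92), *Cd200* (0.72) and *Dhx35* (−0.53) had every TU array on one side of the vehicle arrays in UN-RG pups and on the other side in NN pups. That split was not tested, and by limma none of the 4 interactions passed an adjusted p of 0.05.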

How the results depend on the processing

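The count of 0 clusters at an adjusted p of 0.05 held under every alternative except without NN-TU replicate 7, where limma called 1 (range 0 to 1 with each array left out). The counts of higher and lower clusters moved more. Against 302 higher and 365 lower clusters, median centring gave 194 higher and 446 lower (552 of these 640 among the 667), so that 30.3% of the calls were higher, against 45.3% in the values above. The filter on dim clusters left 195 lower, of fewer clusters tested. With each array left out there were 250 to 463 higher clusters, most without UN-RG-Veh replicate 9, and 255 to 438 lower ones. A term for the arrays with motile cilia transcripts gave 483 higher and 436 lower. Without those 4 arrays 787 clusters passed, of which 365 were among the 667 of the full set. The share of higher calls was 57.2% without these arrays and 58.7% without NN-Veh replicate 2. For TU in NN pups the 730 clusters became 634 to 1131 with each array left out, most without NN-TU replicate 7. The 4 clusters with opposite effects became 14 with array weights, 2 with log2 of the value plus 16, 19 without the 4 arrays with motile cilia transcripts, 12 with a term for them, and 4 to 11 with each array left out. The causes were not tested.

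Of 50 list medians, 19 changed sign under some setting, 17 of them with 1 array left out, 10 without the 4 arrays with motile cilia transcripts, and 2 or 3 each with median centring, quantile normalization, the filter on dim clusters and array weights. These medians were at most 0.26 in size. That of nerve and Schwann cells (−0.12) became 0.38 with the filter on dim clusters, which leaves 1 of its genes, and ran from −0.19 to 0.015 with each array left out. Of 94 named genes, 24 lost their call with no moderation, 13 with array weights, 11 with a variance trend and robust prior, and 0 changed sign. Of the 84 named by rule, 50 kept their call with each of the 16 arrays left out. Median centring shifted the median interaction of all clusters by −0.04 on the log2 scale, and quantile normalization by −0.01. No paired analysis was possible because each replicate number is used once over the 4 groups. Signal limits the arrays for dim genes, since 55.7% of clusters had a group mean above the negative controls.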

Other observations

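A few genes outside the groups described above also passed the thresholds in the interaction. *Mmp3*, stromelysin, a secreted matrix protease, was at −1.09 (SE 0.37), lower with TU in UN-RG pups (−1.33) and at −0.25 in NN pups, and it kept its call with each array left out. Its values were 5.92, 6.31, 6.33 and 6.84 in UN-RG-TU, against 6.84, 8.39, 7.85 and 7.68 in UN-RG-Veh. NN pups showed 5.99, 6.18, 6.74 and 6.09 in NN-TU, against 6.47, 6.46, 6.53 and 6.54 in NN-Veh. TU and vehicle arrays met or overlapped in both backgrounds, and only the UN-RG-Veh mean was above the negative controls. *Postn*, periostin, a matrix protein of fibroblasts, was at 0.82 (SE 0.33), with 0.08 in UN-RG pups and −0.73 in NN pups, where it was lower with TU. It missed the thresholds without UN-RG-TU 14, UN-RG-Veh 9, NN-TU 5 or NN-Veh 2 (0.55 to 0.73) or without the 4 arrays with cilia transcripts (0.66). *Esam*, an adhesion molecule of endothelial cells, was the 1 call among 12 endothelial markers, at −0.60 (SE 0.20). Its call lay in NN pups, where every NN-TU array was above every NN-Veh array (0.40), against −0.20 in UN-RG pups.

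*Gsta3*, a glutathione transferase, was the 1 call among 17 glutathione and NRF2 genes. It had 14.26, 13.41, 14.39 and 13.04 in UN-RG-TU, against 12.44, 11.52, 12.18 and 11.69 in UN-RG-Veh, without overlap, and was at 1.17 (SE 0.48) in the interaction. It passed, of the 16 runs with 1 array left out, only in those without UN-RG-TU 14 or 16, UN-RG-Veh 9 or 11, NN-TU 5 or 8 or NN-Veh 2 or 3, and gave 0.93 to 1.08 in the other 8. Of 14 genes of fatty acid uptake and esterification 1 was higher in the interaction and 1 lower, with a median of 0.04. The higher one, *Slc27a4*, was at 0.49 (SE 0.22) and passed in 5 of the 16 runs with 1 array left out. The lower one was *Slc27a1*, a fatty acid transporter that insulin brings to the cell surface. *Slc27a1* was at −0.85 (SE 0.40), with a higher level with TU in NN pups (0.77) and −0.09 in UN-RG pups. It passed, of the 16 runs with 1 array left out, only in those without UN-RG-TU 14, UN-RG-Veh 9 or 11, NN-TU 5 or 7 or NN-Veh 3, and gave −0.86 to −0.57 in the other 10 and −0.56, also short of the thresholds, without the 4 arrays with cilia transcripts. *Pik3ap1*, an adaptor of PI3 kinase in immune cells, was at −1.0 (SE 0.42), with every UN-RG-TU array below every UN-RG-Veh array. It missed the thresholds without UN-RG-TU 15, UN-RG-Veh 12, NN-TU 6 or 7 or NN-Veh 2 or 4 (−0.91 to −0.79). *Il6* was at 0.81 (SE 0.36), with group means below the negative controls, and it missed the thresholds without UN-RG-TU 13 or 14, UN-RG-Veh 9 or 12, NN-TU 6 or 8 or NN-Veh 1 (0.59 to 0.82) or without the 4 arrays with cilia transcripts (0.57). Among 10 mast cell genes *Tpsb2*, a tryptase, was the 1 call, at 0.67 (SE 0.30), and it passed, of the 16 runs with 1 array left out, only in those without UN-RG-TU 15, UN-RG-Veh 9 or 12, NN-TU 5 or 6 or NN-Veh 1 or 2, and gave 0.54 to 0.69 in the other 9 and 0.71, also short of the thresholds, without the 4 arrays with cilia transcripts.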
